A study of Mus musculus with 16 samples.

Results

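The 8 genes described here, Gas5, Snhg1, Snhg5, Snhg6, Snhg8, Snhg12, Snhg15 and Zfas1, are long noncoding RNAs whose introns carry small nucleolar RNAs (snoRNAs). They were taken by symbol from a count table of 57010 genes, and all 8 were among the 18227 genes that reached 5 counts in no fewer than 50% of the libraries, which were the genes tested. The table holds 16 libraries of total RNA from microglia of the mouse olfactory bulb, depleted of ribosomal RNA and made with a stranded SMART-Seq kit. Microglia were enriched with magnetic beads against CD11b, a surface protein of myeloid cells, from mice of 2 months. There were 4 groups of 4 libraries: WT mice (C57BL/6J) labelled f and m, and App NL-G-F mice labelled f and m. App NL-G-F is a knock-in (KI) in which the mouse's own App gene carries a set of pathogenic mutations linked to familial Alzheimer's disease, on the same C57BL/6J background, so that mutant App is made wherever App is normally active and not in microglia alone.

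SnoRNAs guide chemical modification of ribosomal and other RNAs. C/D box snoRNAs direct 2′-O-methylation with fibrillarin, and H/ACA box snoRNAs direct pseudouridylation with dyskerin. In mammals most of them are cut out of the introns of a host transcript, and the spliced exons of noncoding hosts such as Gas5 are often exported, engaged by ribosomes at a short reading frame and degraded by nonsense-mediated decay. Many hosts start with a run of pyrimidines, as the genes of ribosomal proteins do, and the level of the spliced RNA follows both transcription and the rate of decay.

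Library totals lay between 9052932 and 18117286 counts. App itself was at 371 to 462 CPM (counts scaled to a common library size with TMM, the trimmed mean of M values) in WT libraries and 388 to 423 in KI libraries, which is no check of the genotype labels, since the knock-in changes the sequence of App and not its copy number. The 10 homeostatic microglia markers, among them P2ry12, Tmem119 and Cx3cr1, summed to between 20000 and 23700 CPM in WT and between 20000 and 23300 in KI libraries. Markers of neurons summed to between 395 and 553 CPM in WT and between 495 and 728 in KI libraries. In bulk libraries such as these, fewer cells of a type and less RNA per cell cannot be told apart.

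The 8 genes lie on 7 chromosomes (GRCm39, GENCODE vM39). Gas5 lies at chr1:160861793-160866118 on the plus strand and Snhg1 at chr19:8700319-8703812 on the plus strand. Snhg5 lies at chr9:88377321-88405615 and Snhg6 at chr1:9926809-10014504, both on the minus strand. Snhg8 lies at chr3:123301192-123302578 on the minus strand and Snhg12 at chr4:132035905-132038762 on the plus strand. Snhg15 lies at chr11:6473829-6478870 on the minus strand and Zfas1 at chr2:166903619-166907799 on the plus strand. Within them the annotation places 29 snoRNA genes on the same strand, between 60 and 137 bases long: 9 in Gas5, 8 in Snhg1, 4 in Snhg12, 3 in Zfas1, 2 in Snhg5, and 1 each in Snhg6, Snhg8 and Snhg15. By their letters, 20 carry the C box TGATGA within the first 25 bases and the D box CTGA within the last 20, and 4 of the longer ones end with ACA within the last 8 bases. The other 5 matched neither pattern. One snoRNA or a pair is shown for each host, to set out what each transcript carries, with the C and D boxes or the ACA box in capitals.
Snord47 in Gas5, chr1:160865652-160865728, plus strand: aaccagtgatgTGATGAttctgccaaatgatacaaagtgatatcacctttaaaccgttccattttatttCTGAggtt
Gm22680 in Snhg1, chr19:8702705-8702773, plus strand: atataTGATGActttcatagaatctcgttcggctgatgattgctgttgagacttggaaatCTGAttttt
Snord50a in Snhg5, chr9:88403582-88403653, minus strand: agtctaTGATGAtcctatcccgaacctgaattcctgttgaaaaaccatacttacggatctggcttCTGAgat
Snord50b in Snhg5, chr9:88403850-88403921, minus strand: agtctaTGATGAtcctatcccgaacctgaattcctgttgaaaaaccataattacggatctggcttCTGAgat
Snord87 in Snhg6, chr1:10012688-10012774, minus strand: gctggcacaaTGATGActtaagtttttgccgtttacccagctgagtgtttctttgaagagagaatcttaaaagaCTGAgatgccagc
Snora24 in Snhg8, chr3:123301586-123301715, minus strand: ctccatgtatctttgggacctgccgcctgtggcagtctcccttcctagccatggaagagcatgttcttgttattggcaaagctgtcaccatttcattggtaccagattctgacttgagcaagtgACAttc
Snora61 in Snhg12, chr4:132037551-132037680, plus strand: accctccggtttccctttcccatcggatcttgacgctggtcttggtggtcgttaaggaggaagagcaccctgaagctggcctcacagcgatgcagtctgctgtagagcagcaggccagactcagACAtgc
Snora9 in Snhg15, chr11:6478033-6478165, minus strand: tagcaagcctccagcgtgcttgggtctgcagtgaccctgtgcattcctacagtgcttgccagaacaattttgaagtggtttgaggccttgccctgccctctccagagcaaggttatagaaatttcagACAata
Snord12 in Zfas1, chr2:166907196-166907285, plus strand: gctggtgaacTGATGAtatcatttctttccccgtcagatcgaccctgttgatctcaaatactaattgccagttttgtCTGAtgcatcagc

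The pair in Snhg5 differs at 1 of 72 positions, C50A, counted from the first base with Snord50a first. None of the 29 snoRNA genes received a count in any of the 16 libraries. With 0 observed, up to 3 counts remain possible, or 0.166 CPM in the deepest and 0.331 CPM in the shallowest library, for counting error only. In GENCODE vM39 all 29 overlap an annotated exon of some transcript of their host, and STAR's gene counts leave out a read that overlaps more than 1 gene. The reads were counted on GENCODE vM32, whose exons were not examined here. Across the table, by the exons of vM39, 8 of 78 snoRNA genes (10.3%) that overlap an exon of a noncoding host had any count, against 138 of 306 (45.1%) inside a noncoding gene without such an overlap. For protein-coding hosts the values were 48 of 134 (35.8%) and 185 of 206 (89.8%). The snoRNAs of the 8 hosts were not set aside here, so their own zeros are part of the shares with an exon overlap. The snoRNAs are also short, at 60 to 137 bases, and how far RNA isolation and library preparation kept RNAs of that length was not examined. The part of the overlap or of the length in the zeros was not tested. The level of the snoRNAs was not measured here. Counts of the 8 hosts are read as those of the host transcripts, within the limit of the overlapping genes described below.

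Promoters of 7 of the 8 hosts were found in RefSeq's table (GRCm38.p6), which takes 250 bases before and 50 bases from each annotated start, and each was placed in GRCm39 by an exact match. Snhg6 was not matched. The promoters of the called genes Snhg1 and Snhg15 are shown with those of Gas5 (its second RefSeq promoter), which shares a motif with Snhg15, and of Snhg12, which moved with Snhg15 across replicates. Capitals mark the cAMP response element TGACGTCA and the E-box CACGTG, searched on both strands, and a TOP-like run, the longest run of at least 5 C or T that begins with C within 10 bases of the start.
Gas5, chr1:160862486-160862785, plus strand: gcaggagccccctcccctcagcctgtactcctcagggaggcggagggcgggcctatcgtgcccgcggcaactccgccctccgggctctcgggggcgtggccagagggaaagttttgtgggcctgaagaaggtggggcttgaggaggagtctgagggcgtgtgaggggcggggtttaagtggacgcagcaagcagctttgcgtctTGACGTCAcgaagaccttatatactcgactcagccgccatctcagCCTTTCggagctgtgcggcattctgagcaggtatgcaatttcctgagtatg
Snhg1, chr19:8700601-8700900, plus strand: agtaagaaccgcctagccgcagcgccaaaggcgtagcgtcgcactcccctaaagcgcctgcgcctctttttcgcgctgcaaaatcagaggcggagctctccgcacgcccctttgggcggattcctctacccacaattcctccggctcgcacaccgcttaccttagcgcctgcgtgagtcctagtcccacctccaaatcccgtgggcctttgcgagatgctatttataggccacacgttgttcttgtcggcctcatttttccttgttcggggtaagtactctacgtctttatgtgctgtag
Snhg12, chr4:132035739-132036038, plus strand: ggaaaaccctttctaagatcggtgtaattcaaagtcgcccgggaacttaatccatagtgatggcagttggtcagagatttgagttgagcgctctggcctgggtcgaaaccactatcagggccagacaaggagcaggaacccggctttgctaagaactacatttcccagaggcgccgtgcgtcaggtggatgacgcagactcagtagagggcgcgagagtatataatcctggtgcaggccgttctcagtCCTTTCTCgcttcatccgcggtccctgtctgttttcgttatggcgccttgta
Snhg15, chr11:6478711-6479010, minus strand: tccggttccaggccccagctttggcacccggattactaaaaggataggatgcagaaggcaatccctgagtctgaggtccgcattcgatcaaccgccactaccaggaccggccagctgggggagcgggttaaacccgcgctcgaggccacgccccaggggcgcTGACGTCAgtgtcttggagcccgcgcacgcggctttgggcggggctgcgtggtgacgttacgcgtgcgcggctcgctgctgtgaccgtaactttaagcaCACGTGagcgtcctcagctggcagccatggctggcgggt

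The cAMP response element lay in 2 of the 7 hosts with a promoter, at −46 in Gas5 and at −88 in Snhg15, where the start is base 1, and in 3.45% of the 11702 tested genes with a promoter. The E-box lay in 1 of the 7, at 12 in Snhg15, and in 11.3% of all. TATAAA, searched on the gene's strand before the start, lay in 2 of the 7, Snhg5 and Snhg8, and in 4.92% of all. The AP-1 motif TGACTCA or TGAGTCA lay in none of the 7 and in 4.49% of all. A TOP-like run was found in 4 of the 7, Gas5, Snhg5, Snhg8 and Snhg12, in 36.3% of all genes and in 60.3% of the 58 ribosomal protein genes with a promoter. These matches describe letters within a window and not bound sites.

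The levels of the 8 hosts in every library are plotted by group. Gas5, named for its accumulation in growth-arrested cells, had between 497 and 1138 counts per library and was at 61.6 ± 8.69 CPM in WT and 54.4 ± 4.16 CPM in KI (SD, n = 8 each). The other 7 had between 37 and 380 counts per library. Transcript length was not taken into account, so these levels are not an order of abundance between genes.

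**Figure D1:**
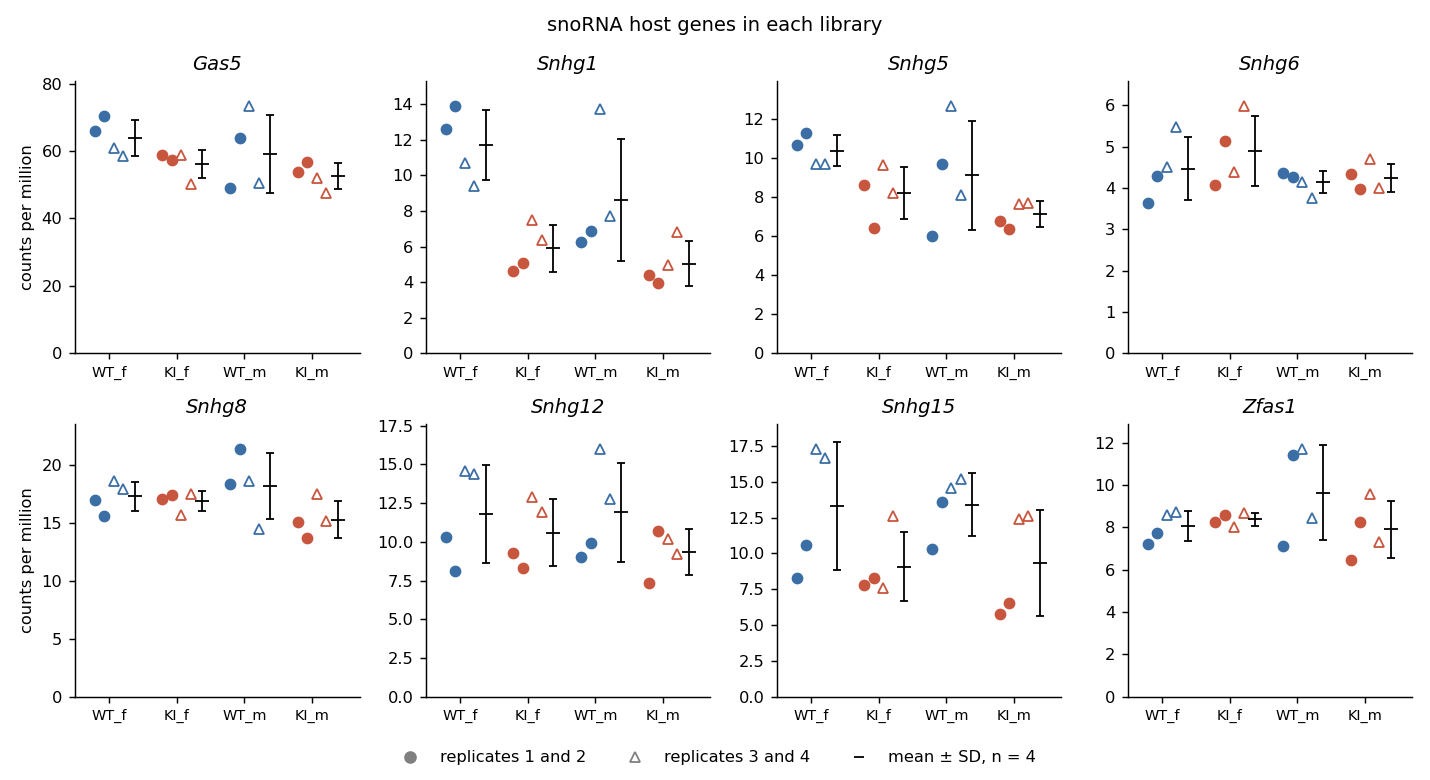
Level in CPM (TMM-scaled, linear axes from 0) of the 8 host genes in each of the 16 libraries, by genotype and sex label, with circles for replicates 1 and 2, triangles for replicates 3 and 4, and a bar for the mean ± SD of the 4 libraries. Snhg1 lies below every WT_f library in all 4 KI_f libraries, and the triangles of Snhg12 and Snhg15 lie mostly above the circles.

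The first comparison asked which of these genes differed between genotypes. With edgeR's quasi-likelihood test, sex label as a covariate and a call at an FDR below 0.1 with an absolute log2 fold change above 0.5, Snhg1 and Snhg15 were lower in KI and the other 6 were not called. These 2 of 8 stand beside a background of 4.3% of all tested genes called lower and 8.64% called in either direction. The log2 fold change was below 0 for 7 of the 8, with a median of −0.22, where 50.4% of all genes were below 0 and the median was 0.00. All 8 KI libraries lay under the WT median for Gas5, Snhg1, Snhg5, Snhg8 and Snhg15, 6 did for Snhg12, 5 for Zfas1 and 3 for Snhg6. The share of all tested genes with every KI library under the WT median was not computed, so these counts have no background beside them. In none of the 8 genes were the 8 KI libraries wholly apart from the 8 WT libraries, which was so for 1.29% of all genes.

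Snhg1, the host of U22 and related C/D box snoRNAs, had the largest difference among the 8. In WT_f it was at 12.6, 13.9, 10.7 and 9.4 CPM in replicates 1 to 4, and in KI_f at 4.62, 5.07, 7.49 and 6.36 CPM. In WT_m it was at 6.25, 6.86, 13.7 and 7.72 CPM, and in KI_m at 4.42, 3.97, 4.95 and 6.82 CPM. The f groups did not overlap, whereas in m the highest KI library lay above the lowest WT library and WT_m replicate 3 stood at about the level of the WT_f group.

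Over both sex labels Snhg1 was at 10.1 ± 3.05 CPM in WT and 5.46 ± 1.26 CPM in KI (SD, n = 8 each). This is a log2 fold change of −0.87 (SE 0.165), or 0.547 of the WT level, with an edgeR adjusted p of 0.00294. The exact two-sided permutation test of its log2 CPM, exchanging genotype within each sex label over 4900 arrangements, gave p = 0.000816, where the smallest possible value is 0.000408. Leaving out each library in turn gave log2 fold changes between −0.96 and −0.74 and edgeR adjusted p values between 0.00107 and 0.00942. Within replicates 1 and 2 alone the log2 fold change was −1.09 (edgeR adjusted p = 0.00198), and within replicates 3 and 4 alone it was −0.68 (edgeR adjusted p = 0.249). The 8 libraries of replicates 1 and 2 gave 1502 genes called higher and 1001 called lower, and the 8 of replicates 3 and 4 gave 23 and 57.

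Snhg15, the host of the H/ACA box snoRNA Snora9, was the other gene called. In WT_f it was at 8.32, 10.6, 17.3 and 16.7 CPM in replicates 1 to 4, and in KI_f at 7.83, 8.28, 7.58 and 12.6 CPM. In WT_m it was at 10.3, 13.6, 14.6 and 15.2 CPM, and in KI_m at 5.78, 6.54, 12.4 and 12.6 CPM. The genotypes overlapped in both sex labels. In WT_f, WT_m and KI_m both libraries numbered 3 or 4 lay above both numbered 1 or 2, whereas in KI_f only replicate 4 did.

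Snhg15 was at 13.3 ± 3.27 CPM in WT and 9.22 ± 2.89 CPM in KI (SD, n = 8 each). This is a log2 fold change of −0.53 (SE 0.186), or 0.693 of the WT level, with an edgeR adjusted p of 0.0821. The exact permutation test gave p = 0.0269. The call is close to both thresholds. It was lost on leaving out any of 10 libraries, WT_f replicates 3 and 4, WT_m replicates 2, 3 and 4, KI_f replicates 1, 2 and 3, and KI_m replicates 1 and 2, with log2 fold changes over all 16 such fits between −0.61 and −0.44 and edgeR adjusted p values between 0.0441 and 0.181. With the replicate numbers 3 and 4 against 1 and 2 as a further term, the log2 fold change was −0.54 with an edgeR adjusted p of 0.00835. Within replicates 1 and 2 alone it was −0.60 (edgeR adjusted p = 0.0418), and within replicates 3 and 4 alone −0.49 (edgeR adjusted p = 0.354).

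Snhg5, the host of the Snord50 pair, was at 9.75 ± 2.02 CPM in WT and 7.68 ± 1.14 CPM in KI (SD, n = 8 each). In f its 4 KI libraries, at 6.42 to 9.65 CPM, lay under the 4 WT libraries, at 9.71 to 11.3 CPM. In m they overlapped, at 6.37 to 7.73 CPM in KI and 6 to 12.7 CPM in WT. Its log2 fold change of −0.34 (SE 0.122) had an edgeR adjusted p of 0.0886, under the FDR threshold but short of the fold threshold, so that Snhg5 was not called. At the FDR alone 3 of the 8 were lower, with 7.82% of all tested genes lower by that rule. The exact permutation test of Snhg5 gave p = 0.0249. Within replicates 1 and 2 alone its log2 fold change was −0.42, and within replicates 3 and 4 alone −0.26.

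Gas5, which carries more snoRNAs than the other 7, had a small difference. Its WT libraries ran from 49.1 to 73.4 CPM with a median of 62.4, and its KI libraries from 47.6 to 58.7 CPM with a median of 55.3. Its log2 fold change was −0.18 (SE 0.0739, edgeR adjusted p = 0.142), and the exact permutation test gave p = 0.0596. Its approximate 95% interval, from −0.32 to −0.03, lies within the fold threshold of 0.5, so that a change of the size seen in Snhg1 lies outside it.

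The remaining 4 hosts were not called, and their 95% intervals give roughly the sizes left possible. All intervals here use a normal approximation and are somewhat narrower than edgeR's test would give. In f, for example, the interval of Snhg15 from −1.07 to −0.02 left out 0, while its unadjusted edgeR p was 0.0571. Snhg12, with a C/D and several H/ACA snoRNAs, ran from 8.09 to 16 CPM in WT and from 7.32 to 12.9 CPM in KI, with a log2 fold change of −0.25 (interval −0.54 to 0.03, edgeR adjusted p = 0.307). Snhg8, the host of Snora24, ran from 14.5 to 21.4 CPM in WT and from 13.7 to 17.5 CPM in KI, with a log2 fold change of −0.14 (interval −0.30 to 0.01, edgeR adjusted p = 0.285). Zfas1, named for its place antisense to the start of Znfx1, ran from 7.11 to 11.7 CPM in WT and from 6.46 to 9.57 CPM in KI, with a log2 fold change of −0.12 (interval −0.34 to 0.11, edgeR adjusted p = 0.593). Snhg6, the host of Snord87, was the only one of the 8 above 0, from 3.63 to 5.47 CPM in WT and from 3.97 to 5.99 CPM in KI, with a log2 fold change of 0.09 (interval −0.13 to 0.31, edgeR adjusted p = 0.698).

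**Figure D2:**
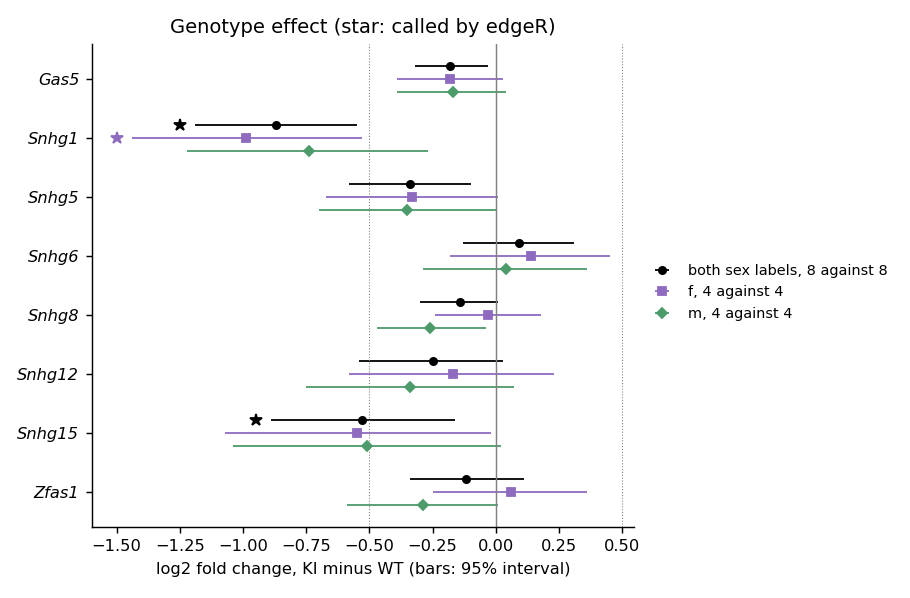
Log2 fold change of KI over WT for the 8 host genes from the edgeR fits, over both sex labels and within f and within m, with approximate 95% intervals (normal approximation), and a star where a gene was called. Snhg1 at −0.87 and Snhg15 at −0.53 carry stars over both sex labels, Snhg1 at −0.99 also within f, and no gene carries one within m.

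The same contrast was then taken within each sex label. In f, Snhg1 was called, with a log2 fold change of −0.99 (SE 0.232, edgeR adjusted p = 0.0166), 1 of 8 beside a background of 4.33% of genes called lower. In m none of the 8 was called by edgeR, DESeq2 or limma voom, beside a background of 0.252% of genes called in either direction, and each of the 3 tools left 2 of the 8 with an unadjusted p under 0.05, where edgeR left 11.7% of all genes so. Snhg1 in m had a log2 fold change of −0.74 (SE 0.241, edgeR adjusted p = 0.226). Every KI library lay below every WT library for Snhg1 and Snhg5 in f, where this was so for 7.41% of all genes, and for none of the 8 in m, where it was so for 3.18%.

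The difference of the genotype effect between f and m was itself tested, and none of the 8 was called by edgeR, DESeq2 or limma voom, with no unadjusted p under 0.05 from any of them, where edgeR gave one to 5.94% of all genes, and 0.0274% of all genes called. For Snhg1 this difference was −0.24 on the log2 scale, with a 95% interval from −0.90 to 0.41, and for Snhg15 it was −0.03, from −0.78 to 0.71. For Zfas1, at 0.06 in f and −0.29 in m, it was 0.35, from −0.08 to 0.78. These intervals are wide, although the normal approximation makes them somewhat too narrow. Differences between sex labels of up to their bounds cannot be seen at this number of libraries. Between f and m over both genotypes none of the 8 was called, with 0.0604% of all genes called. edgeR and DESeq2 gave no unadjusted p under 0.05 there and limma voom gave 1. Snhg1 was the gene nearest to a call, at 0.34 on the log2 scale in f over m (SE 0.165, edgeR adjusted p = 0.759).

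The levels of Snhg15 and Snhg12 also differed between libraries by their replicate number, and a comparison of replicates 3 and 4 with replicates 1 and 2, with genotype and sex label as covariates, was added after the data were seen. The labels do not say what these numbers stand for. The library names run from 1 to 8 for replicates 1 and 2 and from 9 to 16 for replicates 3 and 4. In this comparison Snhg15 was called higher in replicates 3 and 4, at 0.62 on the log2 scale (SE 0.121, edgeR adjusted p = 0.0187), beside 0.631% of genes called higher and 0.73% called in either direction. Snhg12 was at 0.46 (SE 0.099, edgeR adjusted p = 0.031), under the FDR threshold and just short of the fold threshold.

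Snhg12 was at 10.3, 8.09, 14.6 and 14.4 CPM in WT_f replicates 1 to 4, and at 9.3, 8.28, 12.9 and 11.9 CPM in KI_f. It was at 8.99, 9.9, 16 and 12.8 CPM in WT_m, and at 7.32, 10.7, 10.2 and 9.21 CPM in KI_m. In 6 of the 8 libraries numbered 3 or 4 it lay above every library numbered 1 or 2, the exceptions being both of KI_m. For Snhg15 this was so in 4 of 8, and 7 of 8 lay above the median of replicates 1 and 2.

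Within WT libraries alone the difference between replicate numbers was 0.61 for Snhg12 and 0.58 for Snhg15 on the log2 scale, with edgeR adjusted p values of 0.0649 and 0.125. Within KI libraries alone it was 0.32 and 0.68, with edgeR adjusted p values of 0.554 and 0.335. Snhg1 was at 0.30 (SE 0.154, edgeR adjusted p = 0.375) over all 16 libraries, and the other 5 lay between −0.08 and 0.16. Beside 0.631% of all genes, 3 of the 21 immediate early genes were called higher in replicates 3 and 4. Their summed levels overlapped, from 3850 to 18700 CPM with a median of 7060 in replicates 1 and 2, and from 4480 to 14600 CPM with a median of 9000 in replicates 3 and 4. Other lists differed too by an unadjusted edgeR p under 0.05, beside 15.5% of all genes. So did 6 of 10 homeostatic microglia markers and 6 of 17 factors of nonsense-mediated decay, beside 11 of the 21 immediate early genes. Among the 10 neuron markers and the 6 endothelial markers 0 did. The part of any of these lists in the levels of Snhg12 and Snhg15 was not tested.

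**Figure D3:**
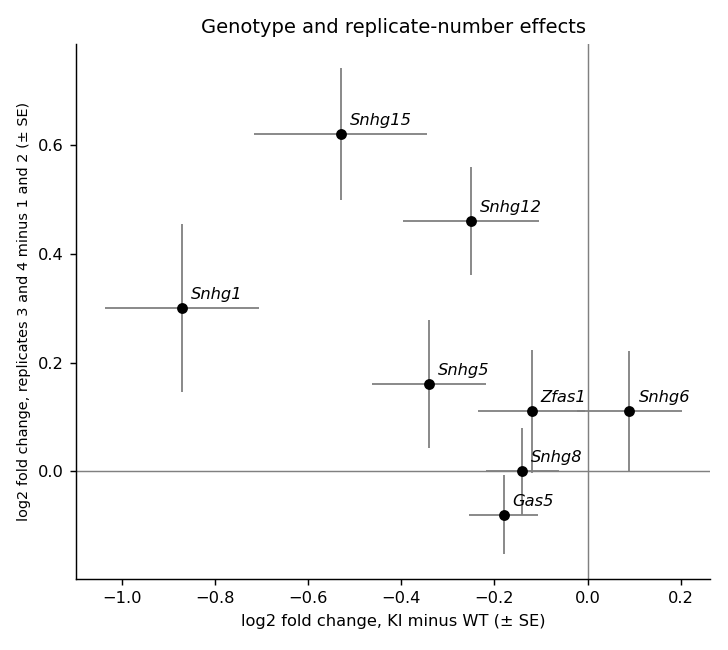
Log2 fold change of KI over WT (horizontal axis) and of replicates 3 and 4 over replicates 1 and 2 (vertical axis) for the 8 host genes, each ± SE, from edgeR fits over the same 16 libraries. Snhg15 lies far from 0 on both axes at −0.53 and 0.62, Snhg1 mainly on the first at −0.87, Snhg12 mainly on the second at 0.46, and Gas5 and Snhg8 lie near 0 on both.

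The way the hosts varied among themselves was described by the correlation of their log2 CPM over the 16 libraries after the 4 group means were taken out. Over the 28 pairs the median Pearson r was 0.32, 22 pairs lay above 0, and 9 pairs (32.1%) had an r of 0.5 or more, beside a median of 0.00 and 7.85% over all pairs of tested genes. Libraries and their depth are shared by every pair, and the difference between replicate numbers was not taken out, so these values are a description. The highest r was that of Snhg1 and Snhg5 at 0.76, followed by Gas5 and Snhg5 at 0.66. The lowest was that of Gas5 and Snhg15 at −0.33. Zfas1 had an r of 0.51 to 0.56 with Gas5, Snhg5, Snhg8, Snhg12 and Snhg15, and Snhg15 had 0.55 with Snhg12 and 0.53 with Snhg6. Snhg6 was at −0.30, −0.16 and −0.21 with Gas5, Snhg1 and Snhg5.

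**Figure D4:**
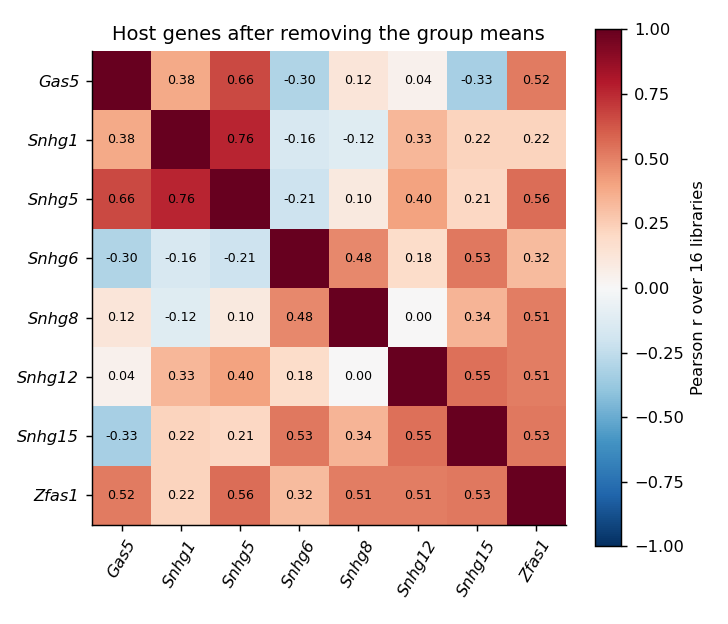
Pearson r of log2 CPM between the 8 host genes over 16 libraries after removing the 4 group means, coloured from −1 (blue) to 1 (red). Snhg5 has its highest r with Snhg1 at 0.76 and Gas5 at 0.66, and Zfas1 has r between 0.51 and 0.56 with 5 of the other 7, Gas5, Snhg5, Snhg8, Snhg12 and Snhg15.

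By the same measure the 3 genes most like each host were named. For Snhg1 they were Slc7a1, a transporter of cationic amino acids, at r = 0.93, 2810021J22Rik at 0.88 and Ofd1, a protein of the centriole, at 0.87. For Snhg15 they were E230013L22Rik at 0.97, the ARF-like GTPase gene Arl5c at 0.95 and the lysosomal sialidase gene Neu1 at 0.95. Between replicate numbers E230013L22Rik and Arl5c were at 0.58 and 0.70 on the log2 scale, with edgeR adjusted p values of 0.00501 and 0.00909. The difference between replicate numbers was not taken out before the correlation. Genes picked by their r with Snhg15 therefore tend to share it, and these values are not a separate result.

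For Snhg12 the 3 were Mroh6 at 0.94, Tatdn3 at 0.91 and A930037H05Rik at 0.91, and for Snhg5 they were Nat9, Bin2 and Gm33023, each at 0.88. For Gas5 they were Atp5k, a subunit of ATP synthase, at 0.91, Zfp65 at 0.89 and Tigd2 at 0.88. For Snhg8 they were Lamtor3, a part of the Ragulator complex on lysosomes, at 0.90, Snx1 at 0.90 and Ldha at 0.86. For Zfas1 they were Gm6969 at 0.89, Tasl at 0.87 and Gm37868 at 0.85, and for Snhg6 they were Odad4 at 0.82, 6330403L08Rik at 0.81 and Ntmt1 at 0.80. Gm6969, Gm37868 and Mroh6 had means of 0.397, 0.623 and 0.816 CPM, so their r rests on few counts per library. All were picked as the highest r among 18227 genes over 16 libraries, so a high r is in part a result of that choice. None of these 24 genes was on the lists used here, and of them Nat9 had the smallest edgeR adjusted p between genotypes, 0.00886, at a log2 fold change of −0.45.

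Several hosts share their start with a gene on the other strand, and the sources used here do not state whether the counts took strand into account, so that reads of overlapping genes may not be told apart. Slc3a2, the heavy chain of the CD98 amino acid transporter, starts 789 bases from the annotated start of Snhg1 and overlaps it by 790 bases. It ran from 185 to 226 CPM in WT and from 159 to 203 CPM in KI, with a log2 fold change of −0.14 (SE 0.0548, edgeR adjusted p = 0.11), which is not a call and is smaller than that of Snhg1. Zbtb37, a zinc finger gene that starts 626 bases from Gas5, ran from 25.1 to 36.8 CPM in WT and from 25.1 to 33.9 CPM in KI, with a log2 fold change of 0.07 (SE 0.0818, edgeR adjusted p = 0.659). Snhg6 overlaps Sgk3 and Mcmdc2 over much of its annotated length and Zfas1 overlaps Znfx1, and the levels of these hosts share that uncertainty. All overlaps given here are those of GENCODE vM39, and those in vM32, on which the reads were counted, were not examined. Mcmdc2, named here after its values were seen, met both thresholds, from 0.305 to 1.13 CPM in WT and from 0.746 to 1.35 CPM in KI, with a log2 fold change of 0.66 (SE 0.232, edgeR adjusted p = 0.0821).

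Beside the 8, 14 other noncoding hosts were listed, of which 12 were tested. Snhg9 was called lower in KI, and the neuron-enriched transcripts Snhg11 and Rian, the latter from the imprinted Dlk1-Dio3 region, were called higher. Snhg9, a short H/ACA host, was at 1.43 ± 0.378 CPM in WT and 0.578 ± 0.274 CPM in KI (SD, n = 8 each) with between 3 and 23 counts per library, and its log2 fold change was −1.27 (SE 0.264, edgeR adjusted p = 0.00528). Snhg11 was at 104 ± 42.1 CPM in WT and 175 ± 36.6 CPM in KI, with a log2 fold change of 0.77 (SE 0.203, edgeR adjusted p = 0.0229). Rian was at 35.1 ± 14.4 CPM in WT and 59.1 ± 19.7 CPM in KI, with a log2 fold change of 0.77 (SE 0.235, edgeR adjusted p = 0.0467). Its call was lost without WT_f replicate 1 or KI_m replicate 2, at 0.70 and 0.67. Within replicates 1 and 2 alone and within replicates 3 and 4 alone, Snhg9 was at −1.13 and −1.46, Snhg11 at 1.26 and 0.37 and Rian at 1.29 and 0.28 on the log2 scale. Of these only Snhg11 and Rian within replicates 1 and 2 were called.

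Snhg14, the host of the Snord115 and Snord116 clusters of the Prader-Willi region, had a log2 fold change of 0.60 (SE 0.247, edgeR adjusted p = 0.138) and was not called in this fit. It was called with limma voom at 0.72 (adjusted p = 0.0772), with replicates 1 and 2 against 3 and 4 as a term at 0.68 (edgeR adjusted p = 0.06), with no filter on low counts at 0.61 (edgeR adjusted p = 0.000192), and without WT_f replicate 4, WT_m replicate 4 or KI_m replicate 3, at 0.80, 0.74 and 0.70. Within replicates 1 and 2 alone it was at 1.18 (edgeR adjusted p = 0.00346) and within replicates 3 and 4 alone at 0.17 (edgeR adjusted p = 0.912). Of the 10 neuron markers 5 were higher in KI at the FDR alone, beside 1266 of all 18227 tested genes. None of those 5 passed the fold threshold. The median log2 fold change of the 10 was 0.34, and all 10 were detected. Within f 2 of the 10 were called higher, beside 514 of the 18227 genes, and within m none was called. The part of this in the levels of Snhg11, Rian and Snhg14 was not tested. Epb41l4aos, at −0.42 (SE 0.144, edgeR adjusted p = 0.0762), passed the FDR but not the fold threshold. The other 7 tested, Snhg3, Snhg4, Snhg10, Snhg16, Snhg17, Snhg20 and Dancr, lay between −0.38 and 0.48 and were not called by edgeR in this fit. Of these, Snhg20, at 0.48 (edgeR adjusted p = 0.108), was called with library totals alone at 0.53, within replicates 1 and 2 alone at 0.77, and without WT_m replicate 1, WT_f replicate 4, KI_m replicate 3 or KI_m replicate 4, at 0.52 to 0.58. Within replicates 3 and 4 alone it was at 0.16 (edgeR adjusted p = 0.908). Over the 12 the median was 0.09, with 5 below 0, where 7 of the 8 listed hosts were below 0.

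**Figure D5:**
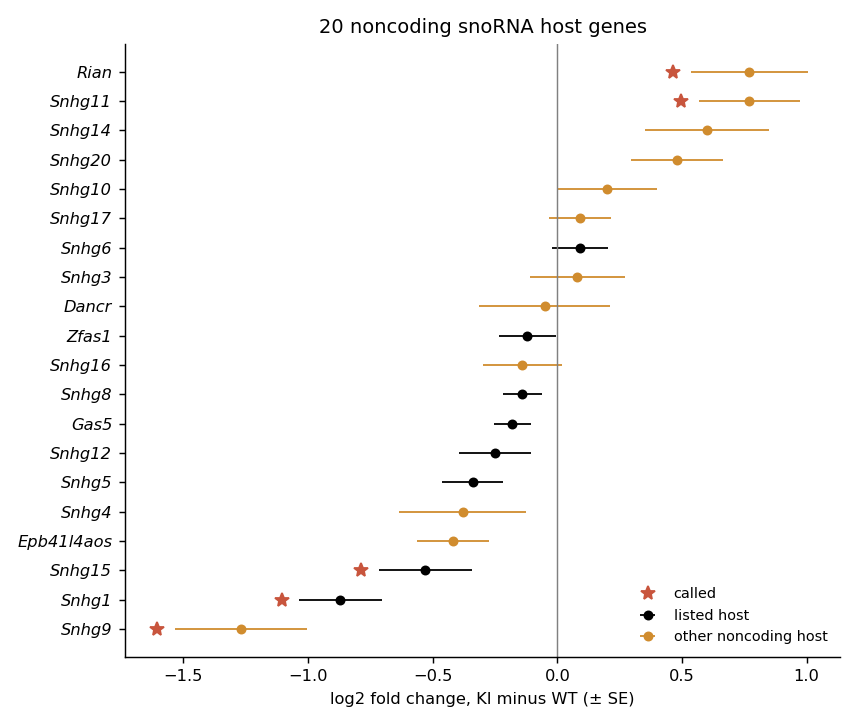
Log2 fold change of KI over WT ± SE from edgeR for the 20 noncoding snoRNA hosts tested, the 8 described here in black and 12 others in orange, with a star beside those called. Snhg9 at −1.27, Snhg1 at −0.87 and Snhg15 at −0.53 are the stars on the lower side, and Snhg11 and Rian, both at 0.77, those on the higher side.

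Protein-coding hosts carry snoRNAs in the same way but make a translated mRNA. Over all tested genes 24.1% had an unadjusted edgeR p under 0.05 between genotypes over both sex labels. Of all tested genes 8.64% were called in either direction, 7.82% were lower at the FDR alone and 50.4% lay below 0. These are the shares to set beside such counts over both sex labels in this and the next lists. Of the 41 protein-coding hosts none was called by edgeR and 5 had an unadjusted p under 0.05. Those 5 were lower in KI at the FDR alone, and the list's median was −0.03. Taf1d, a subunit of the RNA polymerase I factor SL1, was at 57.6 ± 4.21 CPM in WT and 43.8 ± 4.89 CPM in KI, at −0.39 (SE 0.0621, edgeR adjusted p = 0.000854). The translation initiation helicases Eif4a1 and Eif4a2 were at −0.32 and −0.26 with edgeR adjusted p values of 0.00661 and 0.0116, and Ppan, a factor of ribosome assembly, was at −0.22 with an edgeR adjusted p of 0.0675.

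The proteins that form snoRNA particles showed small differences. Of 8 core proteins of the C/D and H/ACA particles none was called and 2 had an unadjusted p under 0.05. All 8 lay below 0, with a median of −0.12. Fbl, the methyltransferase fibrillarin, was at −0.22 (SE 0.0664, edgeR adjusted p = 0.0417), and Snu13, which binds the C/D fold, was at −0.23 (SE 0.0833, edgeR adjusted p = 0.0959). Nop56 and Nhp2 were at −0.10 and −0.19 with edgeR adjusted p values of 0.282 and 0.33. Of 11 assembly factors none was called, 2 had an unadjusted p under 0.05 and the median was −0.08. Naf1, which loads H/ACA RNAs, was at −0.19 (edgeR adjusted p = 0.0693).

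Of 17 factors of nonsense-mediated decay, the pathway that degrades the spliced hosts, none was called, 5 had an unadjusted p under 0.05 and the median was −0.06. Pnrc2, Upf3a, Magoh and Smg8 were lower at the FDR alone, at −0.22, −0.20, −0.23 and −0.20 with edgeR adjusted p values of 0.00995, 0.0121, 0.0524 and 0.0742. Of 15 translation and other genes with a pyrimidine start, none was called and 1 had an unadjusted p under 0.05, Hnrnpa1, at −0.21 (edgeR adjusted p = 0.023). Their median was −0.01. Of 79 ribosomal protein genes none was called, none had an unadjusted p under 0.05, and the median was −0.02. The one lying furthest from 0 of the 4 named by smallest p, Rpl24, was counted at 2 to 8 per library and was at −0.54 with an edgeR adjusted p of 0.362.

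The 21 immediate early genes, which are known to be induced within minutes of a stimulus and also by dissociation of tissue, moved with genotype. In KI 18 of the 21 were called lower, beside 4.3% of all genes, and none higher, with a median log2 fold change of −0.93, and their summed level ran from 8440 to 18700 CPM in WT and from 3850 to 8840 CPM in KI libraries. Btg2, Ier2, Egr1 and Zfp36 were at −1.44, −1.29, −1.29 and −1.25 with edgeR adjusted p values of 0.000723, 0.000744, 0.00186 and 0.0021. Within f 18 of the 21 were called lower, beside 4.33% of all genes, with a median of −1.37. Within m none was called by edgeR and the median was −0.46. There 8 had an unadjusted p under 0.05, beside 11.7% of all genes. In the test of the difference between f and m none of the 21 was called and the median was −0.81. In that test 13 had an unadjusted p under 0.05, beside 5.94% of all genes. Within replicates 3 and 4 alone Btg2, Ier2, Egr1 and Zfp36 were at −1.01, −0.96, −0.98 and −0.93 and were not called, with edgeR adjusted p values of 0.105, 0.144, 0.147 and 0.145. The part of this in the levels of Snhg1 and Snhg15 was not tested.

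Among the other cell types that a CD11b selection could carry over, the median log2 fold change in KI was −0.20 over 6 astrocyte markers, 0.36 over 6 oligodendrocyte markers, −0.14 over 6 endothelial markers and 0.09 over 6 markers of border macrophages. It was 0.05 over the 5 tested markers of monocytes and neutrophils, of which Ly6g was not tested. The 4 red cell markers were not tested, with 171 counts in all. Over both sex labels only the oligodendrocyte markers among these lists held a call, 1 of 6, beside 8.64% of all genes called in either direction. Within f 2 of the 6 astrocyte markers and 5 of the 6 endothelial markers were called lower, beside 4.33% of all genes. Within m 1 endothelial marker was called higher, beside 16 of all 18227 genes. The endothelial median was −0.96 in f and 0.65 in m. For the difference between f and m it was −1.61, with 1 of the 6 called, beside 0.0274% of all genes. Over both sex labels summed levels overlapped between genotypes, at 52.1 to 177 CPM in WT and 69.8 to 98.4 CPM in KI for the endothelial markers and at 231 to 428 CPM in WT and 282 to 413 CPM in KI for the oligodendrocyte markers.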

How the data were processed

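Raw counts per gene for the 16 libraries were deposited as STAR produced them from paired-end reads, on GRCm39 with GENCODE vM32 genes, to which the authors had added human App. The strand setting was not given in the sources used here. Here, genes that reached 5 counts in no fewer than 50% of the libraries were scaled by TMM and tested with edgeR 4.0.16 (R 4.3.3, quasi-likelihood test, sex label as covariate, Benjamini-Hochberg FDR below 0.1 and absolute log2 fold change above 0.5), after a check on simulated data. Separate contrasts used a fit of the 4 groups. DESeq2 1.42.0 and limma 3.58.1 were alternatives, with other scalings, filters and left-out libraries. Log2 CPM used a prior count of 2. Annotation came from GENCODE vM39, promoters from RefSeq. The labels do not say that libraries came from separate animals, so the p-values measure the spread between libraries, which may be technical. No pair of libraries held identical counts. All 8 hosts are named, and up to 4 genes of a list, by smallest p, calls first, and every tested noncoding host. The members and lists were chosen with earlier results of these data known.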

Additional observations from a re-analysis of the deposited data

Results flagged for a closer look

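Each host was checked for a library far from the other 3 of its group, as the gap to the nearest library divided by the range of the group, against Dixon's 95% critical value for 4 libraries. Of 32 groups of 4 values 1 passed: Snhg15 in KI_f replicate 4, where the gap was 0.861 of the range, with 12.6 CPM against 7.58 to 8.28 CPM in the other 3. Chance passes about 1.6 of 32 such groups.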

How the results depend on the processing

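With 2 host genes called over both sex labels, the count was 1 at an FDR below 0.05, 1 with library totals alone, 0 within replicates 3 and 4 alone, and 1 to 2 with each library left out. In each of these with 1 call the gene was Snhg1. In f the count of 1 and in m the count of 0 became 2 each with no filter on low counts, where Snhg1 and Snhg15 were called in both. The cause was not tested. Between replicate numbers the count of 1 became 2 with no fold threshold, 0 in KI libraries alone, and 1 to 2 with each library left out (2 without KI_m replicate 2 or KI_m replicate 4). In WT libraries alone that count stayed at 1, but the gene called was Snhg12 and not Snhg15. Left-out libraries gave 1 throughout in f, and 0 throughout in m, for the difference between f and m, and for f against m. None of the 8 hosts changed sign over both sex labels under any of the 29 alternatives. Among the other noncoding hosts, Snhg17 was at −0.04 within replicates 1 and 2 alone, and Dancr, at −0.05, turned to 0.01 with library totals alone, 0.10 within replicates 1 and 2 alone, and lay between −0.19 and 0.09 with each library left out. The same replicate numbers do not pair the libraries: the correlation of same-numbered WT and KI libraries lay between −0.33 and 0.135, above 0.1 in 2 of 8 pairs, and 2 of 8 WT libraries correlated best with their own number. The replicate block left 2 host genes called, and with it Snhg14 was called at a log2 fold change of 0.70 (edgeR adjusted p = 0.0604). Counts of 37 to 380 per library in 7 of the hosts limit what can be seen of small differences.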
